A study of Mus musculus with 23 samples.

Results

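This account covers 9 of the 23 libraries of the series, from mouse retinal organoids at day 32 of differentiation without FGF1. All came from 1 clone of induced pluripotent stem cells, reprogrammed from embryonic fibroblasts of wild-type Nrl-GFP mice with doxycycline-inducible lentiviral Oct3/4, Sox2, Klf4 and c-Myc. In Nrl-GFP mice, green fluorescent protein is driven by the promoter of the rod gene Nrl. Organoids received bovine serum albumin alone (BSA), or 26 µM linoleic acid (LA) or docosahexaenoic acid (DHA) bound to it, from day 10 onward, and serum and B27 from day 26. Each medium has 3 replicates at day 32 without FGF1. Neural retina was dissected from pooled organoids before RNA extraction, and the libraries were directional and poly(A)-selected.

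The submitters removed 5 of the 23 libraries from their normalized table, which keeps 18. Of the 5, 3 belong to the set without FGF1 and are replicate 1 of BSA, LA and DHA. These are called left-out, and replicates 2 and 3 of each medium, 6 libraries in all, are called kept. The reason for the removal is not given in the sources used here. If it rested on expression values, the difference described here is not independent of that choice. The labels speak of biological replicates but do not say whether replicate 1 was a separate differentiation, so p-values measure the spread between these libraries only.

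Total counts were 10410656 to 11888224 in the left-out and 10405663 to 11843422 in the kept libraries. Between 22530 and 24062 genes had at least 1 count in the left-out libraries, against 22714 to 24797 in the kept. Mitochondrial transcripts took 8.25% to 12.5% of left-out and 5.55% to 11.4% of kept counts (exact permutation test within medium, two-sided, p = 0.37). The share of counts in processed pseudogenes was 0.758% to 0.893% in the left-out and 0.465% to 0.685% in the kept libraries, and these ranges do not overlap (same exact test, p = 0.037, the smallest that the 27 arrangements allow). The first principal component of log2 CPM held 43.4% of the variance and mixed the states. The second held 15.6%, and the left-out libraries lay at 35.3 to 47.4 on it, the kept ones at -33.3 to -13.2.

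The tissue label was checked against rod and retinal genes. Crx, a transcription factor of photoreceptors, was at 1227 to 1434 CPM (counts scaled to equal library size) in the left-out libraries and at 1161 to 1286 CPM in the kept. Pax6, a factor of progenitors and inner retinal neurons, was at 360 to 430 CPM in the left-out and 308 to 422 CPM in the kept libraries. Rpe65, the isomerase of the pigment epithelium, and the haemoglobin gene Hba-a1 had no counts in any of the 9 libraries. Other genes of these cell types did have counts. The 14 pigment epithelium genes tested summed to 154 to 353 CPM in the left-out and 166 to 290 CPM in the kept libraries. The 3 microglia and blood genes tested summed to 23.3 to 31.9 CPM and 19.9 to 32.8 CPM. All 9 libraries therefore hold photoreceptor and inner retinal transcripts.

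Retinal organoids pass from dividing progenitors to postmitotic neurons and glia, and rods switch on phototransduction genes late in that course. Imprinted genes are transcribed mainly from the maternal or the paternal allele, under the control of methylated regions, and their allelic control can vary between pluripotent cell lines and cultures. Processed pseudogenes are reverse-transcribed copies of mRNAs inserted elsewhere in the genome. They can resemble the parent transcript so closely that a few bases separate their reads.

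Of 16210 autosomal genes tested with medium as a term, 41 passed an adjusted p of 0.05 in edgeR's quasi-likelihood test, a percent called of 0.253. Of these, 40 were higher in the left-out libraries (0.247%) and 1, Grb10, was lower (0.00617%). At an unadjusted p under 0.05, 631 genes (3.89%) passed. The median log2 difference over all autosomal genes was -0.03. All 3 left-out libraries were above all 6 kept for 307 genes (1.89%) and below them for 244 (1.51%). In all 41 called genes the groups did not overlap, and the sign was therefore the same in each of the 3 media. The genes were called on these same libraries, so this is no separate support. Leaving out 1 library at a time gave 14 to 54 called genes, with the fewest (14) without left-out DHA replicate 1, then 15 without left-out LA replicate 1 and 19 without left-out BSA replicate 1. Of the 41, 12 passed in all 9 such fits: Rps3a2, Gm12191, Rian, Meg3, Rps2-ps10, Rps3a3, Gm3608, Gm15459, Gm6166, Tma7-ps, Gm15920 and Rps13-ps1.

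**Figure D1:**
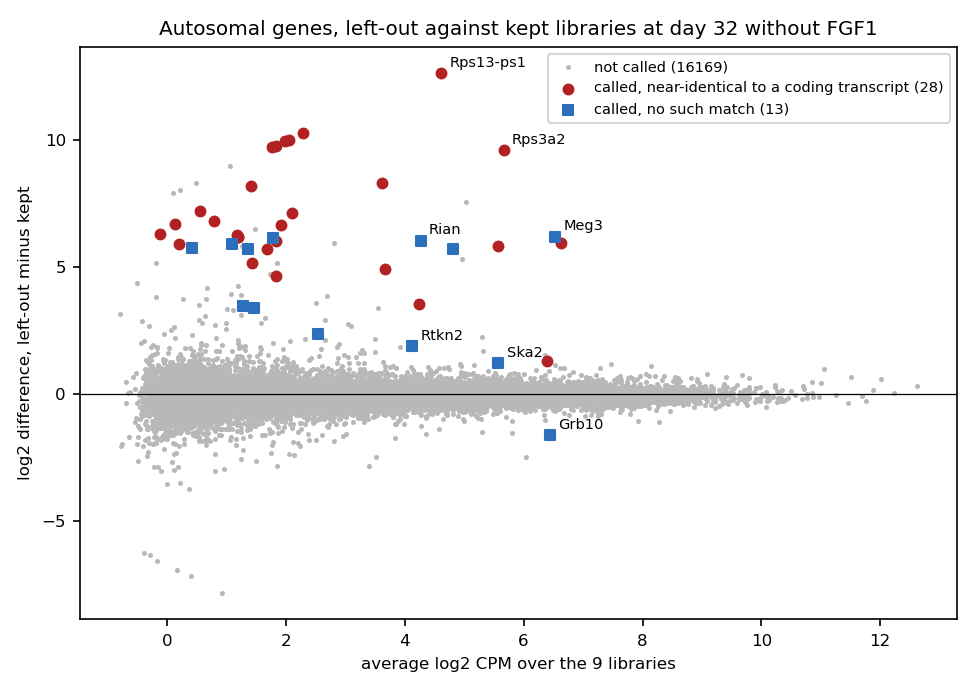
Log2 difference of left-out minus kept libraries (y axis) against average log2 CPM (x axis) for 16210 autosomal genes. Red circles are the 28 called genes that are near-identical to a coding transcript, blue squares the other 13 called genes, and Grb10 is the called gene below 0.

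Processed pseudogenes made up 23 of the 41 called genes. Of 417 processed pseudogenes tested, 23 were called (5.52%), all higher in the left-out libraries. Among protein-coding genes 13 of 13629 were called (0.0954%). The filter on low counts took left-out and kept as its groups. Genes near 0 in the kept libraries were thus tested only because of their left-out counts, and these shares rest partly on that. The called genes were spread over 18 of the 19 autosomes, with none on chromosome 3, and the median log2 difference of single chromosomes ran from -0.07 to 0.01.

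For 28 of the 41 called genes, the longest GENCODE transcript matched a protein-coding transcript of another gene at 98.0% identity or more over at least 90% of its length. Each such gene is called a copy here and the best-matching protein-coding gene its parent, and descent of one from the other was not tested. These sequences are printed to show how few bases separate a copy from its parent. Capitals mark the differing bases in each window. Rps3a2, Gm15459 and Gm6768 differ from the parent at further positions, and Rps3a3, another called copy of Rps3a1, also carries T216C. Positions count from 1 at the A of the parent's start codon, and the parent's base is written first. Transcripts are from GENCODE M21, 5′ to 3′.
Rps3a1 (parent, chromosome 3), around T216C: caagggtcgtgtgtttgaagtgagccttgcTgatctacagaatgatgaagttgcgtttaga
Rps3a2 (copy, chromosome 14): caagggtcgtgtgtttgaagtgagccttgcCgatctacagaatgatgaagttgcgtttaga
Rpl30 (parent, chromosome 15), around G96A: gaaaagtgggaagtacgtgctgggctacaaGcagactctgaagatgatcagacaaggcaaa
Gm12191 (copy, chromosome 11): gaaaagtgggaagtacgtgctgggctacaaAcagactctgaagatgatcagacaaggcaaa
Hspa8 (parent, chromosome 9), around G114A: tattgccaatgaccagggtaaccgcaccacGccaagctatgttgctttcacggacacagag
Gm15459 (copy, chromosome 5): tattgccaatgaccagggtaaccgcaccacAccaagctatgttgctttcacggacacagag
Rps13 (parent, chromosome 7), around T411C and A429G: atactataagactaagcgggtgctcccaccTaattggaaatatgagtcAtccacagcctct
Rps13-ps1 (copy, chromosome 8): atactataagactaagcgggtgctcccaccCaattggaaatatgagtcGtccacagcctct
Ncoa4 (parent, chromosome 14), around A1312G: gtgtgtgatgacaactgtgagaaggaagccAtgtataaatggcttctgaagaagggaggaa
Gm6768 (copy, chromosome 12): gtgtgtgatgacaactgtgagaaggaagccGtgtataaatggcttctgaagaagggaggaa

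Rps3a2, at 14:88123017-88123808 (GRCm38, minus strand), is a copy of the ribosomal protein gene Rps3a1 with 4 mismatches over 792 bases. It was at 198, 146 and 108 CPM in left-out BSA, LA and DHA, and at 0 to 0.398 CPM (median 0.179) in the kept libraries. All 3 left-out libraries were far above every kept one, with a log2 difference of 9.62 (SE 0.49, adjusted p = 6.11e-05). Its parent Rps3a1 averaged 456 CPM in the left-out and 445 CPM in the kept libraries, a log2 difference of 0.02. The copy took 21.8% to 28.7% of the counts of the pair in the left-out libraries and at most 0.0930% in the kept.

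Gm12191, a copy of the ribosomal protein gene Rpl30 with 1 mismatch over 348 bases, was at 99.8, 157 and 155 CPM in left-out BSA, LA and DHA. In the kept libraries it was at 0.924 to 3.34 CPM (median 2.62), a log2 difference of 5.82 (SE 0.34, adjusted p = 0.000131). Rpl30 itself averaged 297 CPM and 304 CPM. Gm15459, a copy of Hspa8, which encodes a constitutive heat shock chaperone, was at 217, 340 and 307 CPM against 1.74 to 11.9 CPM in the kept libraries (log2 difference 5.96, adjusted p = 0.000700). Hspa8 averaged 945 CPM in the left-out and 1030.4 CPM in the kept libraries. In each of these pairs the copy was called and the parent was not.

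In the kept libraries, 6 copies had no count. Rps13-ps1, a copy of the ribosomal protein gene Rps13, was at 62.2, 81.4 and 74.6 CPM in left-out BSA, LA and DHA. On the deposited estimates, against a floor of 3 counts over the 6 kept libraries together, it was at least 1599-fold higher in the left-out ones. The floor allows for low counts only, not for how reads shared with the parent were divided. The same bound was at least 309-fold for Gm16439 (a copy of Bnip3), 258-fold for Gm45315 (Hmgb1), 254-fold for Gm4737 (Ahcy), 234-fold for Gm6768 (Ncoa4) and 209-fold for Gm9825 (Rnps1). Gm6768 has 2 mismatches to Ncoa4 over 1878 bases. Rps13-ps1 was called in all 9 fits without 1 library, Gm16439 in 4, and the other 4 copies in 2 each.

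The 28 copies have 25 distinct parents, and 0 of these were called by edgeR. Over all autosomal genes 0.253% were called, so few or no calls would be found in 25 genes at that share. The parents' log2 differences ran from -0.49 for Ublcp1 to 0.54 for Rps13, with a median of 0.02. All 28 copies were chosen because they were called higher here, so a larger share of the pair is no separate result. In 27 of the 28 pairs the lowest left-out share of the copy was above the highest kept share. The exception was Dynlt1b, a protein-coding dynein light chain gene, with its neighbour Dynlt1c. Dynlt1b was the higher of that pair, averaging 138 CPM in the left-out and 56.4 CPM in the kept libraries. Dynlt1c averaged 23.0 CPM and 20.2 CPM, so the names copy and parent mark only the match there. Gm13841 and Gm8210 had the same values in every library and match Rpl29 equally well, so their reads were not separated. Shares were taken over copy and parent only. At 90% identity or more over at least a 0.5 share of the transcript, some copies matched further genes. Counting the parent, Rps3a2 matched 7 other genes, Gm12191 17, Gm15459 8 and Gm45315 100, while Gm3608 matched 1. The deposited counts are estimates that divide reads shared by similar transcripts, so the level of each single copy is uncertain.

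**Figure D2:**
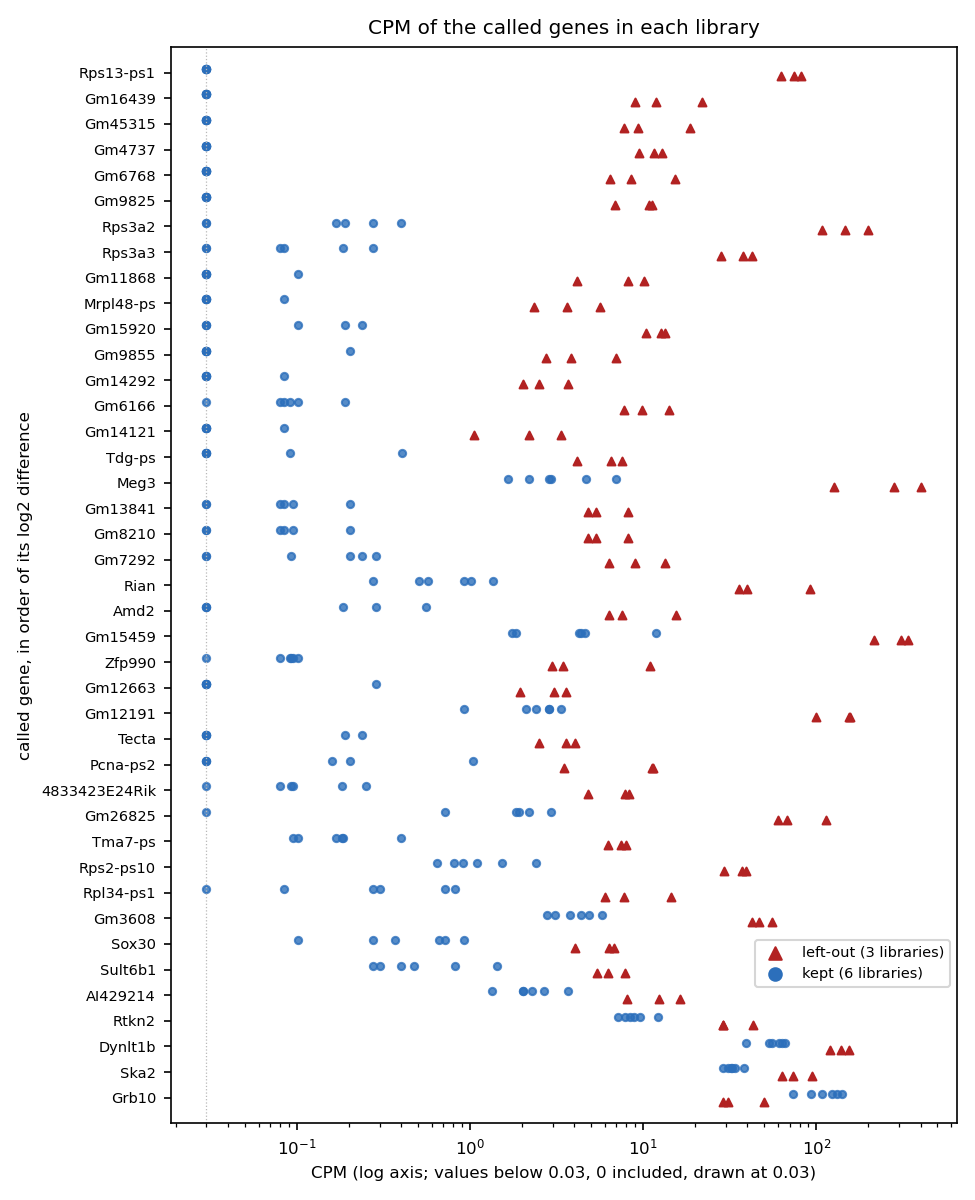
CPM on a log axis (x) of the 41 called genes (y), with red triangles for the 3 left-out and blue points for the 6 kept libraries, and values below 0.03 drawn at 0.03. No gene has overlapping groups, and Grb10 is the gene whose left-out libraries are lower.

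The other 13 called genes had no near-identical protein-coding transcript of another gene in the same orientation, the only orientation searched. At a looser limit, 90% identity or more over at least a 0.5 share of the transcript, Gm26825 and Gm7292 each matched 1 other gene and Zfp990 matched 4. Rtkn2, which encodes a GTPase-binding protein of the rhotekin family, was at 29.1, 28.9 and 42.9 CPM in left-out BSA, LA and DHA and at 7.16 to 12.1 CPM (median 8.58) in the kept libraries. Every left-out library was above every kept one, with a log2 difference of 1.89 (SE 0.21, adjusted p = 0.00554). The call was lost without any 1 of the left-out libraries, with adjusted p of 0.0754 without BSA, 0.0863 without LA and 0.15 without DHA replicate 1. Ska2, which encodes a subunit of the spindle and kinetochore complex, was at 63.7, 94.0 and 73.1 CPM against 29.0 to 38.1 CPM, a log2 difference of 1.22 (SE 0.16, adjusted p = 0.0175). Among the 9 fits without 1 library, its call held only without kept LA replicate 2 (0.0450) or kept DHA replicate 2 (0.00949). The highest adjusted p of these fits was 0.374, without left-out LA replicate 1. Of all 19 alternatives 11 called Ska2, and an offset for GC content gave 0.0641.

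Some of these genes were near 0 in the kept libraries. Tecta, which encodes a protein of the inner ear's tectorial membrane, was at 2.49, 4.03 and 3.57 CPM in left-out BSA, LA and DHA and at 0 to 0.239 CPM in the kept. Sox30, a transcription factor of male germ cells, was at 4.05, 6.81 and 6.33 CPM against 0.101 to 0.924 CPM. Sult6b1, a sulfotransferase family member, was at 5.37, 7.86 and 6.23 CPM against 0.275 to 1.43 CPM. Zfp990, a zinc finger gene, was at 2.96, 3.45 and 10.9 CPM against 0 to 0.101 CPM. All 3 left-out libraries exceeded all 6 kept in each of these genes. Without left-out BSA, LA or DHA replicate 1 the adjusted p was 0.234, 0.433 or 0.276 for Tecta, 0.211, 0.433 or 0.302 for Sox30, and 0.199, 0.402 or 0.432 for Sult6b1. Among the fits without 1 library, the call of Tecta held only without kept DHA replicate 2 (0.00949). Sox30 also lost its call without kept BSA replicates 2 (0.117) and 3 (0.123) and kept DHA replicate 3 (0.0843), and Sult6b1 without the same 3 libraries (0.0798, 0.107 and 0.101) and kept LA replicate 3 (0.0584). Zfp990 lost its call only without left-out DHA replicate 1 (0.112). The lincRNA Gm26825, at 5:5781530-5783636 on the plus strand, spans the called Hspa8 copy Gm15459 (5:5781615-5783555, minus strand), and reads of the pair may not be separated. Whether Gm26825 matches Hspa8 in the opposite orientation was not searched. Gm26825 was at 59.9, 67.5 and 113 CPM against 0 to 2.93 CPM (log2 difference 5.70, adjusted p = 0.00534), and its call was lost without left-out BSA (0.0537), LA (0.0863) or DHA (0.195) replicate 1.

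Among imprinted genes, 49 of the 67 listed were tested and 3 were called: Meg3 and Rian rose in the left-out libraries and Grb10 fell. In 5 of the 49 all left-out libraries were above all kept, and in 3 all were below, together 16.3% against 3.40% of all autosomal genes. Of the 30 tested genes expressed from the paternal allele 24 had a positive and 6 a negative difference, with a median of 0.36. Of the 19 expressed from the maternal allele 8 were positive and 11 negative, with a median of -0.06. The list was chosen with results of these data known.

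Meg3 and Rian are maternally expressed noncoding RNAs of the Dlk1-Meg3 locus on chromosome 12, a locus often silenced in cultured pluripotent cells. Meg3, at 12:109541001-109571726, was at 282, 126 and 404 CPM in left-out BSA, LA and DHA, and at 1.65 to 7.01 CPM (median 2.89) in the kept libraries. All left-out libraries stood far above, with a log2 difference of 6.20 (SE 0.41, adjusted p = 0.000177). Rian, at 12:109603940-109661716, was at 35.7, 40.0 and 91.5 CPM against 0.275 to 1.35 CPM, a log2 difference of 6.05 (SE 0.39, adjusted p = 0.000177). The annotation holds Rian, Dlk1 and Rtl1 a second time on an assembly patch, with equal counts on both in 23 of 23 libraries, so the chromosome 12 value is a part of the total. Dlk1, the paternally expressed protein gene of the locus, overlapped between the states, at 0.715 to 3.43 CPM in the left-out and 0.285 to 2.52 CPM in the kept libraries. Of the tested genes of the locus, Meg3 and Rian passed, and Dlk1 (log2 difference 0.63, SE 0.66) and Begain (0.10, SE 0.95) did not. Maternally expressed Mirg fell below the filter, with 6 to 32 counts in the left-out and 0 to 3 in the kept libraries. Also below the filter, B830012L14Rik (8 to 15 against 5 to 8), Rtl1 (0 to 3 against 1 to 3) and Dio3 (0 to 1 against 0 to 4) were not separated.

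Grb10 encodes an adaptor protein that restrains insulin and insulin-like growth factor signalling. It is expressed from the maternal allele in most tissues and from the paternal allele in neurons. Its CPM was 49.7, 31.1 and 29.0 in left-out BSA, LA and DHA and 73.5 to 141 (median 116) in the kept libraries. Every left-out library was below every kept one, and the gene fell by 1.62 on the log2 scale (SE 0.20, adjusted p = 0.0129). The adjusted p passed 0.05 without left-out BSA replicate 1 (0.0563), kept BSA replicate 2 (0.0655), left-out LA replicate 1 (0.203) and left-out DHA replicate 1 (0.174). Ddc, the neighbouring decarboxylase gene, overlapped between the states with a log2 difference of 0.48 (SE 0.46).

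Several other imprinted genes came near the threshold. Nap1l5, a nucleosome assembly family gene expressed from the paternal allele, was at 50.8, 81.8 and 105 CPM in left-out BSA, LA and DHA and at 8.23 to 56.7 CPM in the kept libraries. Only kept DHA replicate 3, at 56.7 CPM, overlapped the left-out range. The log2 difference was 2.24 (SE 0.37, adjusted p = 0.0649), and with 1 library left out the adjusted p ran from 0.00171 (without kept DHA replicate 3) to 0.749 (without left-out LA replicate 1), passing also without kept DHA replicate 2 (0.0110). Nnat, a paternally expressed proteolipid gene of developing brain, was at 328, 247 and 274 CPM against 80.3 to 155 CPM, with no overlap (log2 difference 1.2, SE 0.22, adjusted p = 0.0946). With 1 library left out its adjusted p ran from 0.0386 without kept DHA replicate 2, the only such fit that passed, to 0.637 without left-out BSA replicate 1.

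Rasgrf1, a paternally expressed exchange factor for Ras, was at 5.84, 5.85 and 4.90 CPM in left-out BSA, LA and DHA and at 12.0 to 25.1 CPM in the kept libraries. All left-out values were lower, with a log2 difference of -1.72 (SE 0.31, adjusted p = 0.105). With 1 library left out the adjusted p ran from 0.0442 without kept DHA replicate 2, the only such fit that passed, to 0.907 without left-out DHA replicate 1. Kcnk9, a maternally expressed potassium channel gene, was at 17.4, 14.8 and 21.6 CPM against 32.4 to 70.2 CPM, also without overlap (log2 difference -1.48, SE 0.35, adjusted p = 0.382). Zrsr1, a paternally expressed splicing factor gene, was at 104, 108 and 93.3 CPM against 57.9 to 74.8 CPM, with no overlap (log2 difference 0.60, SE 0.16, adjusted p = 0.499). Airn, the paternally expressed antisense RNA of Igf2r, was at 10.9, 10.9 and 19.1 CPM against 5.95 to 10.5 CPM (log2 difference 0.79, SE 0.29). DESeq2 and limma voom each called 7 of the 49 imprinted genes, against 0.598% and 1.07% of all autosomal genes. Nap1l5 lies within Herc3, Zrsr1 within Commd1 and Nnat within Blcap, and Airn overlaps Igf2r, each pair on opposite strands. How strand was used in counting is not given, so these pairs may share reads.

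Other well-known imprinted genes overlapped between the states. H19, a maternally expressed growth-limiting RNA, had a log2 difference of 0.73 (SE 0.65), and its neighbour Igf2, a paternally expressed growth factor, 0.45 (SE 0.21). Snrpn, of the Prader-Willi region, had -0.01 (SE 0.18), and Peg3, a zinc finger gene, 0.11 (SE 0.21). The differences at imprinted loci were therefore not of one direction or size.

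**Figure D3:**
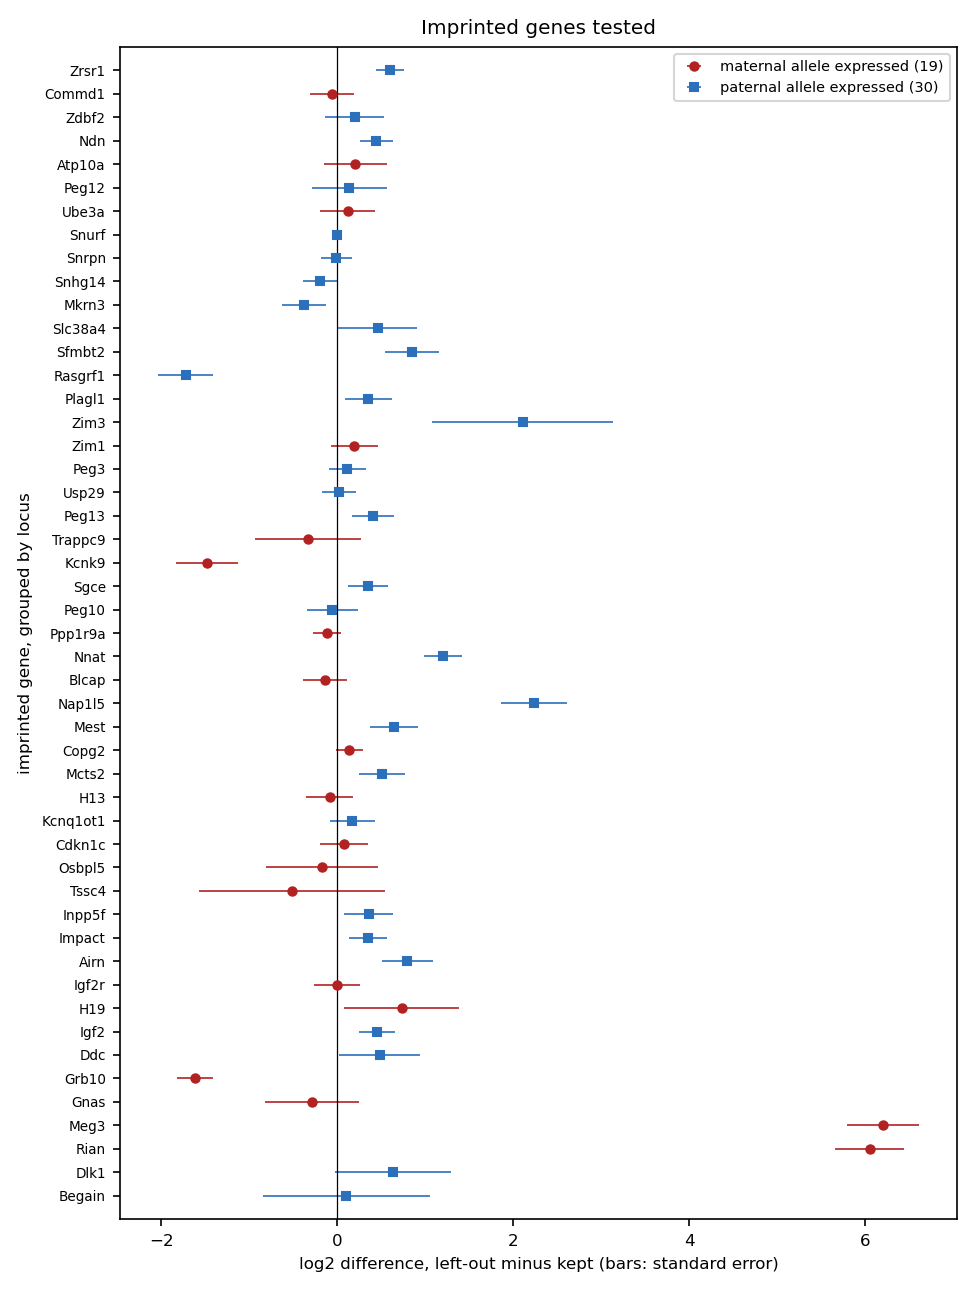
Log2 difference of left-out minus kept libraries (x axis, bars are standard errors) for 49 imprinted genes (y axis, grouped by locus), with red circles for maternal and blue squares for paternal expression. Meg3 and Rian lie above 6, Grb10 at -1.62, and Snurf is drawn without a bar because its error could not be computed.

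Maturation was described with rod lists and with an axis from other libraries. None of the 25 lists of maturation, cell make-up and cell state had a member called by edgeR. Over their 400 tested entries (genes in several lists counted in each), 34 had an unadjusted p under 0.05, DESeq2 called 4 and voom with quality weights called 6. Over all autosomal genes 3.89% had such a p, and edgeR called 0.253%, DESeq2 0.598% and voom 1.07%, so few calls would be found in 400 entries at the overall share. Among 28 tested late rod genes 2 had a positive and 26 a negative difference, with a median of -0.30 against -0.03 over all genes. The late rod median was -0.14 without kept DHA replicate 2, -0.18 without left-out DHA replicate 1, -0.52 without left-out BSA replicate 1 and -0.09 with voom. Mean log2 CPM of the late rod list overlapped between the states, at 7.56 to 7.95 in the left-out and 7.63 to 8.71 in the kept libraries. In bulk RNA, fewer rods and less of these transcripts per rod cannot be told apart.

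Gnat1, the rod transducin subunit, was at 33.6, 17.2 and 17.7 CPM in left-out BSA, LA and DHA and at 23.4 to 202 CPM (median 58.3) in the kept libraries, and the groups overlapped (log2 difference -1.54, SE 0.65). Kept DHA replicate 2 was the highest. The guanylate cyclase gene Gucy2e was at 176, 150 and 204 CPM against 211 to 276 CPM, with no overlap (log2 difference -0.43, SE 0.15). Rgs9, which speeds the shutoff of transducin, was at 98.6, 104 and 88.5 CPM against 125 to 231 CPM (-0.61, SE 0.24). Slc24a1, the rod's sodium, calcium and potassium exchanger, was at 111, 104 and 102 CPM against 124 to 231 CPM (-0.50, SE 0.20). Sag, rod arrestin, overlapped (0.21, SE 0.37). None of these passed the adjusted threshold.

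The 15 early rod genes had a median of -0.38, with 4 positive and 11 negative differences (-0.22 without left-out DHA replicate 1). Nr2e3, which represses cone genes in rods, was at 392, 338 and 364 CPM in left-out BSA, LA and DHA and at 474 to 573 CPM in the kept libraries, with no overlap (log2 difference -0.51, SE 0.16, adjusted p = 0.905). Nrl, the factor that sets rod fate, was at 785, 632 and 541 CPM against 682 to 974 CPM, with overlap (-0.35, SE 0.19). Crx differed by 0.08 (SE 0.17). The 18 synapse genes had a median of -0.33, -0.19 without kept DHA replicate 2 and -0.18 with voom, with 1 positive and 17 negative differences, while the 20 cilium genes had 10 of each sign and a median of 0.01. Mean log2 CPM of the early rod and synapse lists overlapped between the states.

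Cone genes leaned the other way, with 10 of 14 positive, 4 negative and a median of 0.21 (0.34 without kept LA or DHA replicate 3). Their summed level overlapped between the states, at 695 to 1031 CPM in the left-out and 610 to 1113 CPM in the kept libraries. Their mean log2 CPM, which weights genes equally, did not overlap (4.27 to 4.48 against 3.81 to 4.22). Kcne2, a potassium channel subunit, was at 135, 104 and 192 CPM in left-out BSA, LA and DHA and at 24.3 to 68.0 CPM in the kept libraries, with no overlap (log2 difference 1.54, SE 0.32, adjusted p = 0.197). Opn1sw, the short-wavelength cone opsin, was at 6.47, 10.7 and 13.2 CPM against 1.59 to 6.77 CPM (1.52, SE 0.50, adjusted p = 0.985), so left-out BSA lay within the kept range. Of 16 neurogenic precursor genes 14 were positive, with a median of 0.28, which was -0.042 without left-out BSA replicate 1. Dll3, a Notch ligand family member of newly forming neurons, was at 5.53, 6.42 and 4.09 CPM against 0.876 to 2.53 CPM (1.77, SE 0.42, adjusted p = 0.389).

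The axis came from 12 more deeply sequenced libraries, none of them among the 9: day 26, and replicates 1 and 2 of day 32 with FGF1. On it, 33.3% of 17470 autosomal genes were called. FGF1, the change of medium at day 26 and age go together on this axis. Of the 200 genes that rose most clearly to day 32, 199 were tested here, and 160 (80.4%) were lower in the left-out libraries, with a median of -0.26. Of the 200 that fell, 177 were tested and 144 (81.4%) were higher, with a median of 0.22. Mean log2 CPM of both sets overlapped between the states. The rising set was at 4.48, 4.29 and 4.04 in left-out BSA, LA and DHA and at 4.20 to 5.02 in the kept libraries. For the falling set these values were 4.13, 3.73 and 3.66 against 3.31 to 3.80. Over all autosomal genes 53.7% had a negative and 46.3% a positive sign. edgeR called 0 genes in either set. At an unadjusted p under 0.05 the rising set had 14 lower and 1 higher and the falling set 17 higher and 0 lower, DESeq2 called 3 and 2, and voom 3 and 6, against overall shares of 3.89% unadjusted, 0.598% with DESeq2 and 1.07% with voom. The median of the rising set was -0.07 without left-out DHA replicate 1 and -0.14 without kept DHA replicate 2, and that of the falling set was 0.11 without left-out BSA replicate 1. With voom the medians were -0.11 and 0.37.

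**Figure D4:**
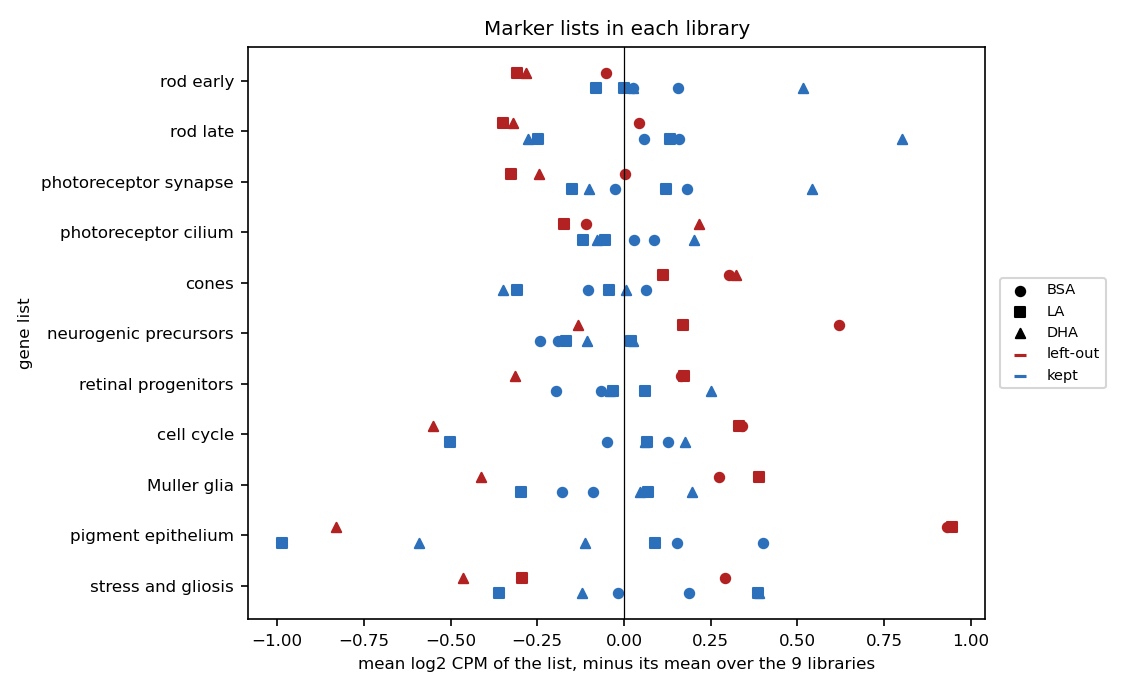
Mean log2 CPM of each marker list minus its mean over the 9 libraries (x axis), by list (y axis), with left-out libraries in red, kept in blue and the medium as the marker shape. Kept DHA replicate 2 stands highest in the rod and synapse lists, and in the cone list all 3 left-out libraries lie above the 6 kept.

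In lists of cell make-up, no member was called. Cell cycle genes had a median of 0.12 with 14 of 25 positive, and it was -0.17 without left-out LA replicate 1. Mki67, a marker of dividing cells, was at 54.4 to 84.1 CPM in the left-out and 34.6 to 76.5 CPM in the kept libraries. Retinal progenitor genes had a median of 0.07. Medians were 0.15 for Müller glia, with Glul, glutamine synthetase, at 0.14 (SE 0.23) and Rlbp1, a retinaldehyde-binding protein, at 0.35 (SE 0.45). They were -0.12 for bipolar, 0.03 for amacrine, -0.27 for horizontal (-0.17 without left-out DHA replicate 1) and 0.19 for ganglion cells.

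Cell types that dissection could leave behind were compared as well. Pigment epithelium genes had 12 of 14 positive and a median of 0.62, which was -0.0044 without left-out LA replicate 1, 0.19 without kept LA replicate 3 and 0.24 with all 23 libraries in the fit. Their summed level was 154 to 353 CPM in the left-out and 166 to 290 CPM in the kept libraries, so the ranges overlap. Tyr, the melanin enzyme, was at 10.7, 22.6 and 0.817 CPM in left-out BSA, LA and DHA and at 0.665 to 17.7 CPM in the kept libraries. Mesenchymal genes summed to 517 to 868 CPM and 423 to 828 CPM, and the collagen gene Col1a1 differed by -0.10 (SE 0.63). Microglia and blood genes summed to 23.3 to 31.9 CPM and 19.9 to 32.8 CPM, with 3 of 20 tested. Pluripotency and germ layer genes summed to 19.7 to 45.5 CPM and 22.8 to 48.1 CPM, and Foxa2, Dppa3, Utf1 and Fgf4 had no counts.

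Stress genes had 5 positive and 15 negative differences of 20, with a median of -0.24. The median was -0.10 without kept DHA replicate 2, -0.09 without left-out DHA, -0.15 without kept LA replicate 2, -0.54 without left-out BSA replicate 1 and -0.06 with voom. Their summed level was 345 to 462 CPM in the left-out and 547 to 729 CPM in the kept libraries. The sum is weighted to genes with many counts. Their mean log2 CPM overlapped between the states, at 2.76 to 3.51 in the left-out and 2.86 to 3.61 in the kept libraries. Fgf2, a growth factor that retinal injury raises, was at 115, 185 and 125 CPM in left-out BSA, LA and DHA and at 243 to 402 CPM in the kept libraries, with no overlap (log2 difference -1.06, SE 0.22, adjusted p = 0.215). The immediate early gene Fos was at 17.6, 4.79 and 6.74 CPM against 15.5 to 35.2 CPM, so left-out BSA lay within the kept range.

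The interaction test of edgeR asked whether the left-out difference varied between media. Each medium has only 1 left-out library, so the test could hardly find such a difference, and no conclusion is drawn from it. Of 16210 genes 0 were called (0.0%), 248 passed an unadjusted p under 0.05, and DESeq2's likelihood ratio test called 9. At transcript level 6 of 39143 autosomal transcripts were called (0.0153%), from Gm12191, Rps3a2, Gm3608, Meg3, Rian and Rps3a3, and leaving out 1 library gave 0 to 4.

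The other 2 left-out libraries, replicate 3 of BSA and of LA with 200 ng/ml FGF1, were not used in the test. On a scale common to the 23 libraries, 40 of the 40 genes called higher were above all 6 kept FGF1 libraries in both, and Grb10 was below them. By this measure 34.4% of all autosomal genes were above and 35.3% below. These 2 libraries were less deeply sequenced than the 6 they were set against, and depth and state cannot be told apart there. Meg3 was at 257 and 191 CPM in left-out BSA and LA with FGF1, against 0.407 to 4.21 CPM in the kept FGF1 libraries and 0.329 to 4.47 CPM at day 26. Rps3a2 was at 217 and 218 CPM against 0 to 0.199 CPM and 0 to 0.381 CPM. Grb10 was at 60.1 and 42.1 CPM against 99.3 to 158 CPM and 161 to 242 CPM.

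Imprinted genes that missed the threshold were read in the same libraries. Of the 49 tested, 22 (44.9%) were above and 12 (24.5%) below the kept FGF1 libraries in both, against 34.4% and 35.3% of all autosomal genes. Genes whose states overlapped without FGF1 were among them, such as Gnas, a signalling G protein gene, at 99.6 to 141 CPM against 517 to 617 CPM, and Ube3a, a ubiquitin ligase gene, at 527 to 718 CPM against 127 to 162 CPM. Nap1l5 was at 92.3 and 61.6 CPM in left-out BSA and LA with FGF1 and at 2.65 to 13.6 CPM in the kept FGF1 libraries. Rasgrf1 was at 3.40 and 5.27 CPM against 25.8 to 41.4 CPM, and Kcnk9 at 13.2 and 14.4 CPM against 24.5 to 59.8 CPM. Nnat was at 306 and 288 CPM against 174 to 284 CPM, while day 26 libraries had 338 to 750 CPM. Nap1l5, Rasgrf1, Kcnk9 and Nnat lay on the same side in the set without FGF1, and were chosen here because they had done so.

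**Figure D5:**
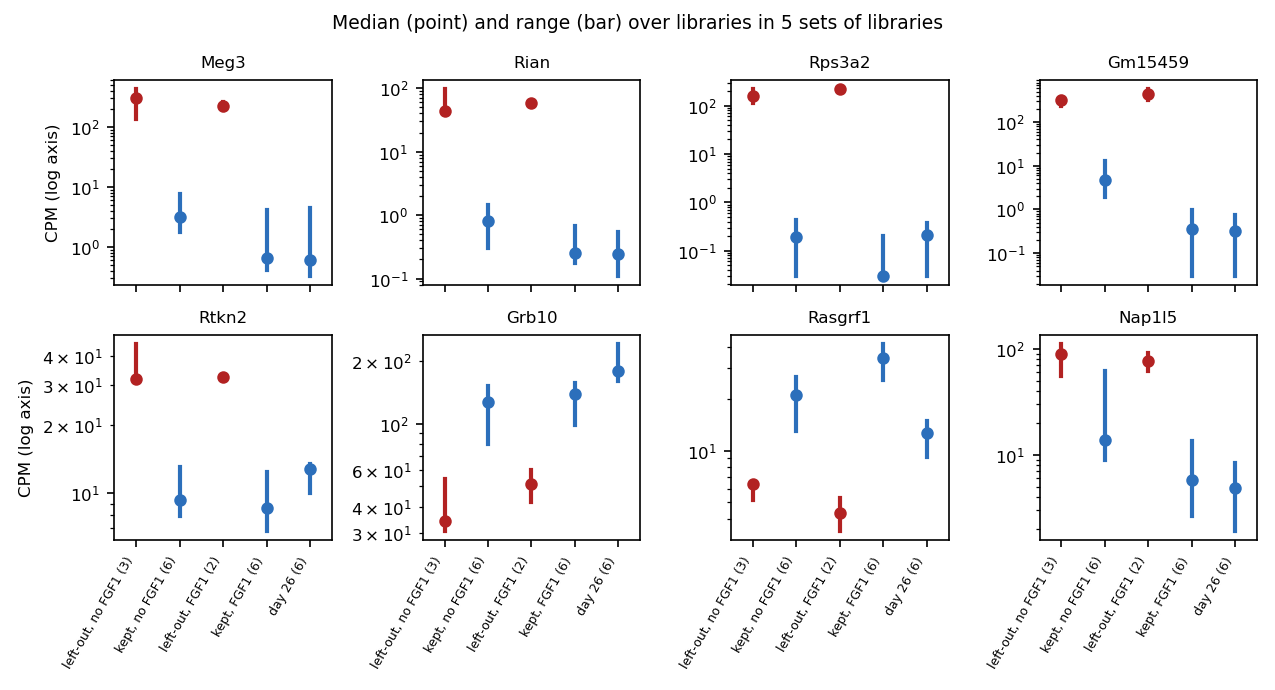
Median (point) and range (bar) of CPM on log axes (y) for 8 genes in 5 sets of libraries (x), left-out in red and kept in blue, with values below 0.03 drawn at 0.03. In Meg3, Rian, Rps3a2, Gm15459 and Rtkn2 both left-out sets lie above the 3 kept sets, and in Grb10 and Rasgrf1 below them.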

How the data were processed

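RNA was sequenced from 23 libraries, of which 9 were compared. Per the submitters' processing notes, the authors used Trimmomatic 0.36, kallisto 0.45.0, edgeR and GRCm38.p6. The deposited gene and transcript tables hold estimated counts, which were rounded to whole numbers. The authors' normalized table holds CPM signal values for 18 libraries and was used only to see which libraries it keeps. How reads were assigned to strand is not given in the sources used here.

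Left-out was compared with kept by edgeR 4.0.16 (filterByExpr, TMM, quasi-likelihood, medium as a term, Benjamini-Hochberg adjustment over all 17006 genes, R 4.3.3), and only autosomal genes are reported. SE is the log2 difference divided by the square root of F. Log2 CPM used a prior count of 2. DESeq2 1.42.0 and limma 3.58.1 were alternatives. Copies were found with BLAST+ 2.17.0 in GENCODE M21 transcripts, in the same orientation only. The fit was tested on simulated data.

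Named genes were the 15 largest called differences per direction with average log2 CPM of at least 1 and no predicted, Rik or pseudogene name, the 10 pseudogenes and predicted genes with the smallest p, imprinted genes, up to 5 members per list, and fixed markers. Of these the text gives those it describes, and some fixed markers are not reported here. The members and lists were chosen with earlier results of these data known. Intervals of counting error are not given, and depth was about equal in the 9 libraries.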

Additional observations from a re-analysis of the deposited data

Results flagged for a closer look

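The 6 kept libraries were compared with each other for 102 genes, lists and library measures, and in 7 of them 1 library stood apart from the other 5 by Dixon's ratio. Chance flags about 1 in 20 such groups. The endothelial list had its highest mean log2 CPM, 2.71, in kept DHA replicate 2. Nap1l5 was at 56.7 CPM and Plagl1 at 224 CPM in kept DHA replicate 3, both the highest of the 6. Ppp1r9a was at 198 CPM in kept BSA replicate 2, the highest. Gm12191 was at 0.924 CPM in kept LA replicate 2, the lowest, and the microglia and blood list had its highest mean, 2.13, there. The cell cycle list had its lowest mean, 2.94, in kept LA replicate 3.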

How the results depend on the processing

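No paired analysis was possible because the left-out libraries are replicate 1 and the kept ones replicates 2 and 3, so the groups share no replicate number.

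The count of 41 called genes (40 higher, 1 lower) became 133 (110 and 23) with no filter on low counts, 97 (84 and 13) with DESeq2, 173 (161 and 12) with limma voom and quality weights and 106 (84 and 22) with all 23 libraries in the fit, and 14 to 54 when 1 library was left out. Of the 41, 36 were among the DESeq2 calls and 41 among the voom calls. The 6 called transcripts became 31 with no filter and 25 with voom, and 0 to 4 with 1 library left out. The interaction gave 9 with DESeq2. The cause was not tested.

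The neurogenic median was 0.10 with all 23 libraries, and with voom the medians were 0.14 for microglia and blood, 0.28 for endothelium and -0.25 for pluripotency and germ layers. With 1 library left out, medians ran from -0.13 to 0.013 for the cilium, -0.042 to 0.39 for neurogenic precursors, -0.14 to 0.18 for progenitors, -0.17 to 0.40 for the cell cycle, -0.066 to 0.17 for amacrine cells, -0.025 to 0.46 for Müller glia and -0.0044 to 0.86 for pigment epithelium. They ran from -0.36 to 0.20 for ciliary margin and lens, -0.36 to 0.10 for microglia and blood, -0.29 to 0.30 for endothelium, -0.51 to 0.52 for pluripotency and germ layers, -0.00056 to 0.25 for p53 targets and 0.17 to 0.34 for imprinted genes. No called gene changed sign under the alternatives run. Alternatives for the axis medians, other than 100 and 500 genes, were chosen after seeing the data.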
